A study of Mus musculus with 2 samples.

Results

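The dimmest Venus gate held the fibroblasts with the least light from an Nr1d1 reporter, that is, cells taken at or near the trough of that reporter. On each plate the gate with the lowest median of the recorded Venus image channel was chosen from the 4 sort gates, and cells with at least 1000 detected genes were kept. This gave 95 cells on plate 1 and 96 on plate 2, together 191 of the 767 cells kept in the whole series. Of 192 wells in the gate, 1 well of plate 1 was left out (1234 counts, 868 genes). All values below are within this gate and are given for each plate apart, unless another gate is named.

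The cells were NIH3T3-Rev-VNP1-H2B-iRFP, a derivative of the mouse embryonic fibroblast line NIH3T3 that carries a Venus reporter of Nr1d1 and a nuclear marker, the near-infrared protein iRFP joined to histone H2B. They were grown in 10% serum to 95% confluency about 5 days after seeding, were not synchronized, and were sorted singly for full-length single-cell RNA sequencing by FLASH-seq. The 2 plates were the 2 samples of 1 group, with all cells of plate 1 from a high RFP sort and all cells of plate 2 from a low RFP sort, so plate and RFP sort cannot be told apart. The dimmest gate also filled well columns 1 to 6 on both plates, so gate and column cannot be told apart. Whether the line was 1 clone is not given in the sources used here.

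The circadian clock of mammalian cells is a feedback loop. The activator ARNTL (BMAL1) with its partner CLOCK binds E-boxes and drives the Per and Cry genes, whose proteins repress that activator. The same activator drives Nr1d1 and Nr1d2, whose proteins (REV-ERBs) bind RORE sites and repress Arntl, and drives Dbp and Tef, whose proteins bind D-boxes. Nr1d1 is therefore low both on the falling and on the rising arm of its cycle, and a gate set on low reporter light can hold cells of both arms. NIH3T3 fibroblasts keep this clock in culture, secrete fibrillar collagens and fibronectin, and divide less as they become confluent.

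The promoter stretches below show such recognition sites at clock genes that were in the pairs described later. They are RefSeq promoters on the build GRCm38.p6, written 5′ to 3′ on the strand of the gene, and capitals mark the motif. The windows searched ran from 250 bases before to 50 bases after each start, on both strands. The Arntl stretch (chr7:113207530-113207559, plus strand) holds a RORE. The Cry1 stretch (chr10:85185069-85185154, minus strand), the Per1 stretch (chr11:69098743-69098828, plus strand) and both Tef stretches, from different starts (chr15:81802506-81802591 and chr15:81811236-81811321, plus strand), hold an E-box. The Per3 stretch (chr4:151044776-151044910, minus strand) holds 2 D-boxes.
Arntl: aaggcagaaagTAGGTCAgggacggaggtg
Cry1: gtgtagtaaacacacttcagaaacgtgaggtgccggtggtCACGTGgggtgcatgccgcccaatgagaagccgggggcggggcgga
Per1: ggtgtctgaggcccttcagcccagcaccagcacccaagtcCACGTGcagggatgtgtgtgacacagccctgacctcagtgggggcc
Per3: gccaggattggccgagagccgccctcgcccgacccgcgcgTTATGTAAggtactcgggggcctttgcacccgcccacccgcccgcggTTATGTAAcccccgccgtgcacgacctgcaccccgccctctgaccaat
Tef, upstream start: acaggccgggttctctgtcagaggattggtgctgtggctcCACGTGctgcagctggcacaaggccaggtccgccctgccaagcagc
Tef, downstream start: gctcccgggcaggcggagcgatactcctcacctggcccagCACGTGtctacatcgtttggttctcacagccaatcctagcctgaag
The motifs searched were the E-box CACGTG, the D-box TTATGTAA or TTACGTAA, and the RORE TAGGTCA. None of these sequences contains another. The promoter table held 22 promoters for 17 of the 19 clock genes described here. An E-box was in 6 of those 22 promoters and in 7.15% of all 32851 promoters of the table, a D-box in 1 of 22 and in 1.06%, and a RORE in 2 of 22 (Arntl and Nfil3) and in 2.61%. Dbp and Nr1d1, which were also in those pairs, had no match in the window, as had Clock, Npas2, Rora, Nr1d2, Cry2, Hlf and Usp2, and the other genes with a match were Nfil3, Bhlhe41 and Ciart. A match is a description of letters in the window and was not tested for binding.

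The gate held deeply sequenced cells with few exceptions. Total counts ran from 532729 to 1040051 per cell on plate 1 (median 791215) and from 3067 to 1146620 on plate 2 (median 821872). The single shallow cell of plate 2 (3067 counts, 1770 genes) passed the gene filter, but 1 count in it is worth 326 CPM (counts scaled to 1000000 per cell), against 1.22 CPM in a cell of median depth on that plate. It stays in the correlations, which use ranks unless Pearson's r is named. It also stays in the measures of scatter and spread (SD) for plate 2 and in the mean level required of named genes, which do not use ranks. The highest values and the group means given below for plate 2 leave it out. No cells had identical counts. Of 8 fibroblast markers, including Vim, Col1a1 and Sparc, all 8 had counts in at least 25% of the cells on each plate, and their sum ran from 7617 to 46964 CPM. Of the other markers measured, 0 of 2 endothelial, 0 of 3 immune, 0 of 3 adipocyte and 1 of 4 epithelial markers did so, and so did Des, the 1 muscle marker measured. The sums of those lists had a median of 0 CPM, and their highest values in a cell were 19.4, 9.07, 7.09, 45.4 and 86.5 CPM. Their part in the results was not tested.

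The recorded light placed the gate at the bottom of the sort but tracked the reporter transcript only loosely within it. In the detector channel near 530 nm the brightest cells of the gate (82946 on plate 1 and 84698 on plate 2, arbitrary units) lay below the dimmest cells of the next gate (96863 and 105540). In the image channel, by which the gates were ranked here, the gates overlapped: the brightest cells of the dimmest gate stood at 2377842 and 1568573, and the dimmest cells of the next gate at 1246562 and 1234731. On plate 1, 2 cells had image values below 0. Within the gate the Spearman correlation (rho) of the 2 channels was 0.531 on plate 1 and 0.782 on plate 2. The image channel followed the reporter transcript, deposited as YFP, at a rho of 0.148 and 0.287 over 95 and 96 cells, and the detector channel at 0.279 and 0.413. All correlations across cells are descriptions, since the cells of a plate share 1 library preparation and are not replicates, so no p is given.

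Throughout, a gene pair or a gene and a measure were called related when rho was at least 0.2 in size with the same sign on both plates. Of the genes measured, 11925 had a count in at least 25% of the gate's cells on each plate and were compared. Under this rule 64 of 11925 genes followed the image channel of Venus (0.537%), and 0 of the 16 clock genes compared did. With the detector channel, a comparison chosen after seeing the data, 0.696% of genes were called and 1 of 16 clock genes, Nr1d1 (rho 0.272 on plate 1 and 0.335 on plate 2).

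The clock genes differed in how evenly they were found over the cells. Arntl, the activator, ran from 0 to 139 CPM on plate 1 (median 45.6, counts in 93 of 95 cells) and from 0 to 150 CPM on plate 2 (median 40.4, 88 of 96 cells). Nr1d1 ran from 0 to 198 CPM (median 47.9) and from 0 to 263 CPM (median 60.0), although these cells had the least reporter light. Most cells of the gate therefore held transcripts of both the activator and its repressor. The reporter transcript itself ran from 0 to 129 CPM (median 15.4, 72 of 95 cells) and from 0 to 179 CPM (median 15.7, 79 of 96 cells).

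Among the output transcription factors of the D-box family, Tef ran from 0 to 126 CPM (median 33.1, 90 cells) on plate 1 and from 0 to 274 CPM (median 44.5, 92 cells) on plate 2. Dbp ran from 0 to 254 CPM (median 9.63, 78 cells) and from 0 to 131 CPM (median 10.0, 74 cells). Both genes were found in most cells, with a few cells many times above the median. Hlf, the third member of that family, had counts in 1 and 5 cells only.

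Of the repressors, the period and cryptochrome genes Per3, Cry1 and Per2 had lower medians than Arntl, Nr1d1 and Tef. Per3, a period gene, ran from 0 to 102 CPM (median 9.17, 73 cells) and from 0 to 74.5 CPM (median 13.4, 67 cells). Cry1, a cryptochrome, ran from 0 to 63.8 CPM (median 7.35, 69 cells) and from 0 to 78.0 CPM (median 6.81, 67 cells). Per2 was found in 18 of 95 and 32 of 96 cells, with highest values of 38.7 and 111 CPM, so its correlations below rest on few cells. Bhlhe40, an E-box repressor that also answers to many outside cues, had counts in every cell (medians 64.0 and 59.6 CPM). Npas2, Hlf and Per2 fell below the 25% filter, which left 16 of 19 clock genes for the comparison of pairs.

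Scatter beyond that of other genes at the same level marked 3 of 16 clock genes. A gene was called variable when the log2 of its squared coefficient of variation lay at least 1 above the running median of genes with a similar mean on both plates. This held for 753 of 11925 genes (6.31%), or 775 genes without the shallow cell of plate 2, and for 3 of 16 clock genes (18.75%). They were Dbp (2.28 on plate 1 and 1.40 on plate 2), Tef (1.15 and 1.51) and Nr1d1 (1.36 and 1.14). For Arntl the same measure was 0.73 and 0.81, for Cry1 0.66 and 0.88. Per3 (1.13) and Rora (0.99) lay either side of the limit on plate 1, and neither reached it on plate 2 (0.60 and 0.71). Bhlhe40 (0.95 and 1.16), Nfil3 (0.74 and 1.14) and Ciart (0.55 and 1.06) reached it on plate 2 only.

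**Figure D1:**
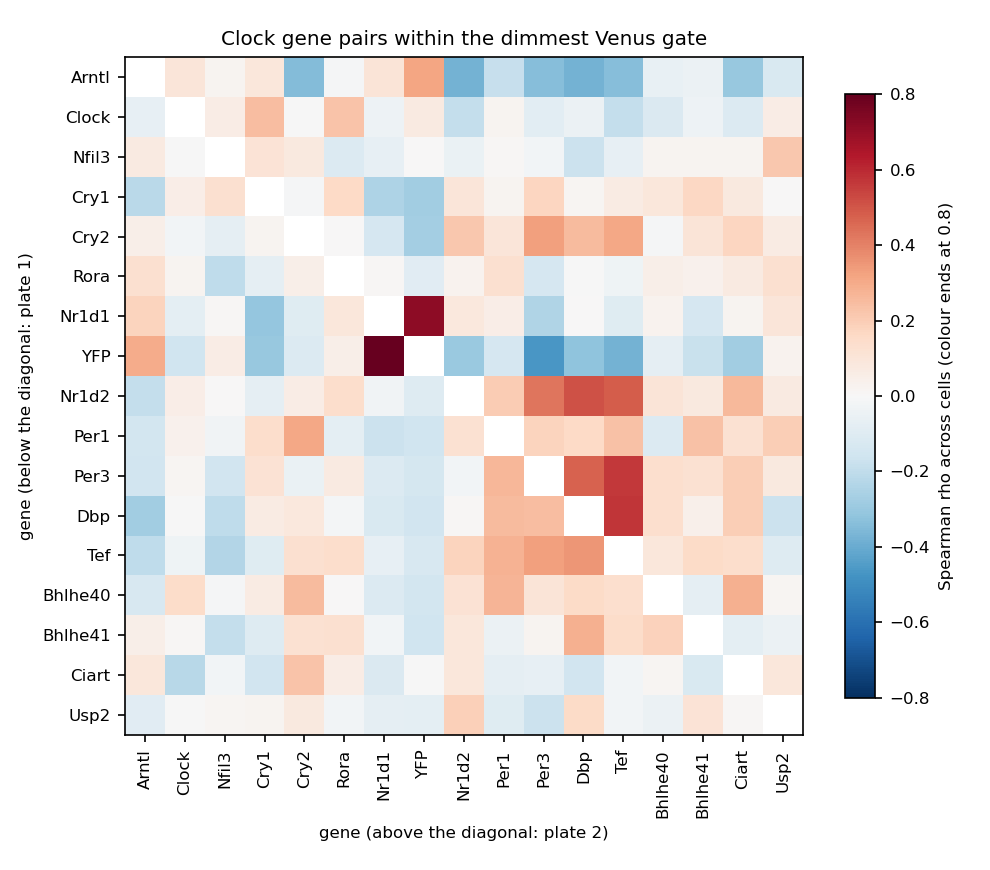
Spearman correlation of each pair of clock genes and the reporter transcript across the cells of the dimmest gate, plate 1 (95 cells) and plate 2 (96 cells) apart, with colour from negative to positive. The block of Per3, Dbp and Tef is positive on both plates, and Arntl is negative with Dbp and Tef on both.

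Within the gate Dbp, Tef and Per3 were positively related from cell to cell, and Arntl negatively to Dbp and Tef. Of 120 clock gene pairs, 7 were called (5.83%), 4 positive and 3 negative. Of all 190779 pairs of a clock gene with any gene compared, 0.719% were called. The highest was Dbp with Tef at a rho of 0.354 on plate 1 and 0.572 on plate 2. Per3 with Tef reached 0.326 and 0.566, Per3 with Dbp 0.248 and 0.473, and Per1 with Tef 0.278 and 0.237. The negative pairs were Arntl with Dbp (−0.276 and −0.376), Arntl with Tef (−0.206 and −0.341) and Nr1d1 with Cry1 (−0.312 and −0.248).

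Per2, below the filter and so outside the 120 pairs, passed the same limits with Per1 (0.257 and 0.238), Per3 (0.232 and 0.303) and Nr1d1 (−0.221 and −0.224), and with the reporter transcript (−0.302 and −0.388). These values rest on the 18 and 32 cells with a Per2 count. Arntl with Nr1d1 was not called (0.176 and 0.103), and neither was Nr1d1 with Dbp (−0.120 and 0.002). In the 3 brighter gates Nr1d1 and Dbp had positive values on both plates, from 0.140 to 0.452. Nr1d2, the second REV-ERB gene, differed between plates: with Dbp its rho was 0.007 on plate 1 and 0.508 on plate 2, and with Per3 −0.020 and 0.427. With 1 sample per plate, that difference has no test. Each of the 7 called pairs kept its sign in every brighter gate on both plates, so their direction was not particular to the dimmest gate. Arntl with Dbp ranged there from −0.195 to −0.270, Arntl with Tef from −0.165 to −0.475, and Nr1d1 with Cry1 from −0.147 to −0.566. Dbp with Tef ranged from 0.409 to 0.550 and Per3 with Tef from 0.177 to 0.530. Per3 with Dbp ranged from 0.107 to 0.562, and Per1 with Tef from 0.069 to 0.428.

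Depth and RNA composition moved with some of these genes. The number of detected genes had a rho with Arntl of 0.082 on plate 1 and −0.309 on plate 2, and with Tef of −0.217 and 0.138. The mitochondrial share of counts had a rho with Dbp of 0.271 and 0.099. Given total count and detected genes, 6 pairs were called, all among the 7, and each of the 7 kept its sign on both plates in each of the 8 other settings run. With every cell thinned to 300000 counts, 6 pairs were called, 4 of them among the 7.

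**Figure D2:**
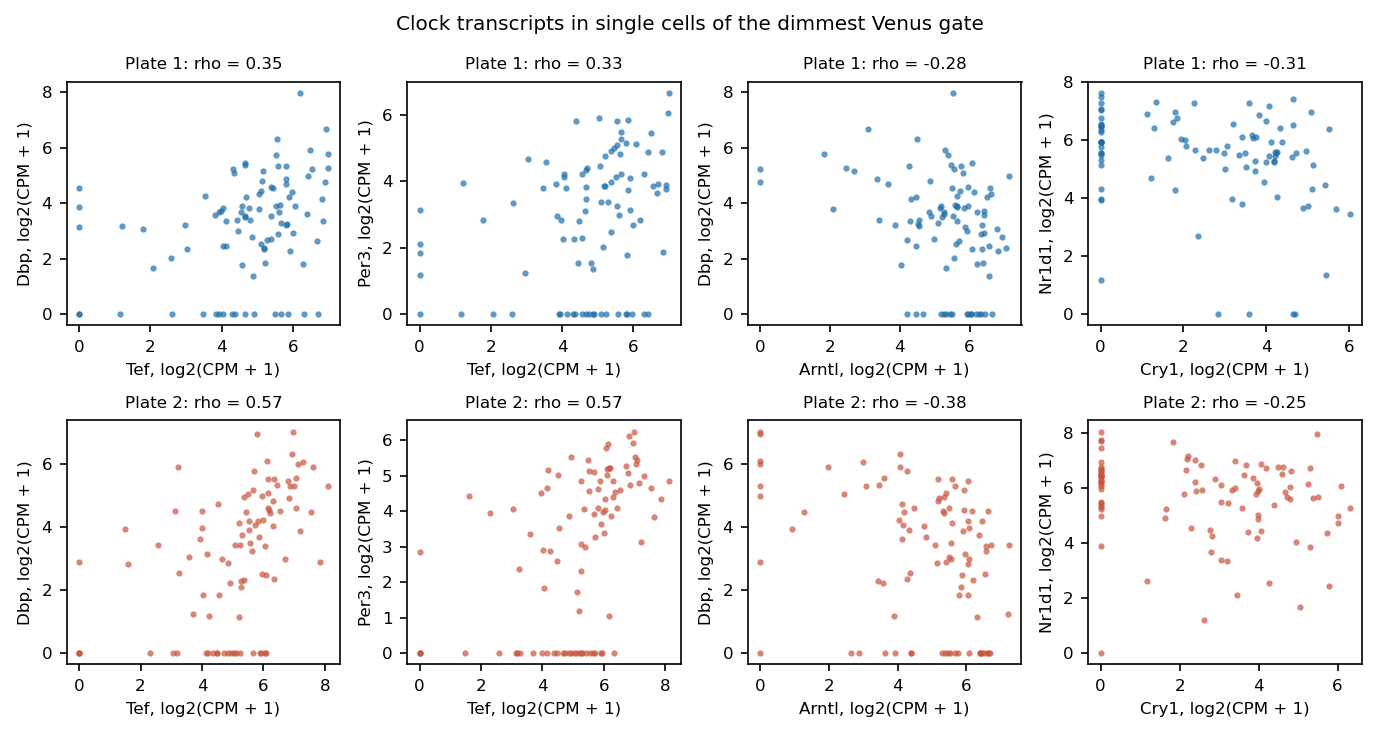
Single cells of the dimmest gate on plates 1 and 2, with each axis the log2(CPM + 1) of 1 clock gene. Dbp and Tef have a positive rho on both plates (0.354 and 0.572) and Arntl and Dbp a negative one (−0.276 and −0.376), with wide scatter around both.

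Transcript of the reporter varied among the cells of the gate. YFP followed Nr1d1 at a rho of 0.813 and 0.713, and reads of the construct and of the gene cannot be told apart where their sequences coincide. It was positive with Arntl (0.298 and 0.317) and negative with Cry1 (−0.304 and −0.279). In the brighter gates the rho of Arntl with YFP lay between −0.214 and 0.162, and that of Cry1 with YFP between −0.153 and −0.494. Of 15 clock genes other than Nr1d1, these 2 were called with YFP, against 3.64% of all genes (434 of 11922). YFP also had a rho with detected genes of 0.024 on plate 1 and −0.347 on plate 2, and with the mitochondrial share of 0.068 and 0.296. The part of these measures in the result was not tested, apart from the setting given total count and detected genes.

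The ends of that spread were compared as the 24 cells with the highest and the 24 with the lowest YFP on each plate. Nr1d1 averaged 114 CPM in the high and 22.8 CPM in the low cells on plate 1, and 127 and 31.6 CPM on plate 2. Arntl averaged 61.1 against 35.4 CPM on plate 1 and 53.6 against 22.4 CPM on plate 2, so it was higher in the cells with more reporter transcript. Several repressors and outputs had means that ran the other way. Dbp averaged 11.9 in the high against 32.7 CPM in the low cells on plate 1, and 8.84 against 36.7 CPM on plate 2. Tef averaged 36.9 against 55.6 CPM, and 36.2 against 86.6 CPM. Per3 averaged 9.48 against 19.5 CPM, and 7.25 against 30.3 CPM. These means describe the ends only: over all cells the rho with YFP was −0.152 and −0.319 for Dbp, −0.126 and −0.381 for Tef and −0.140 and −0.463 for Per3, below the limit on plate 1. In the brighter gates the rho of Dbp with YFP was positive, from 0.150 to 0.445.

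Cry1 averaged 7.14 in the high against 17.7 CPM in the low cells on plate 1, and 7.10 against 14.8 CPM on plate 2. Per2 had counts in 2 of 24 high and 9 of 24 low cells on plate 1, and in 4 and 16 on plate 2. Per1 (14.5 against 28.0 CPM, and 15.9 against 23.2 CPM) and Nr1d2 (8.09 against 19.0 CPM, and 10.1 against 21.7 CPM) were also higher on average in the low cells. Nfil3, a D-box repressor, had means in the direction of Arntl (20.7 against 14.4 CPM, and 16.4 against 12.7 CPM). On plate 2 its median was lower in the high cells, with counts in 16 high and 18 low cells. Over all cells its rho with YFP was 0.058 and 0.001, so it was not called. Clock did not keep a direction between plates (13.9 against 20.0 CPM, and 24.9 against 21.2 CPM). The groups overlapped cell by cell for every one of these genes shown, and no test was made because cells are not replicates.

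**Figure D3:**
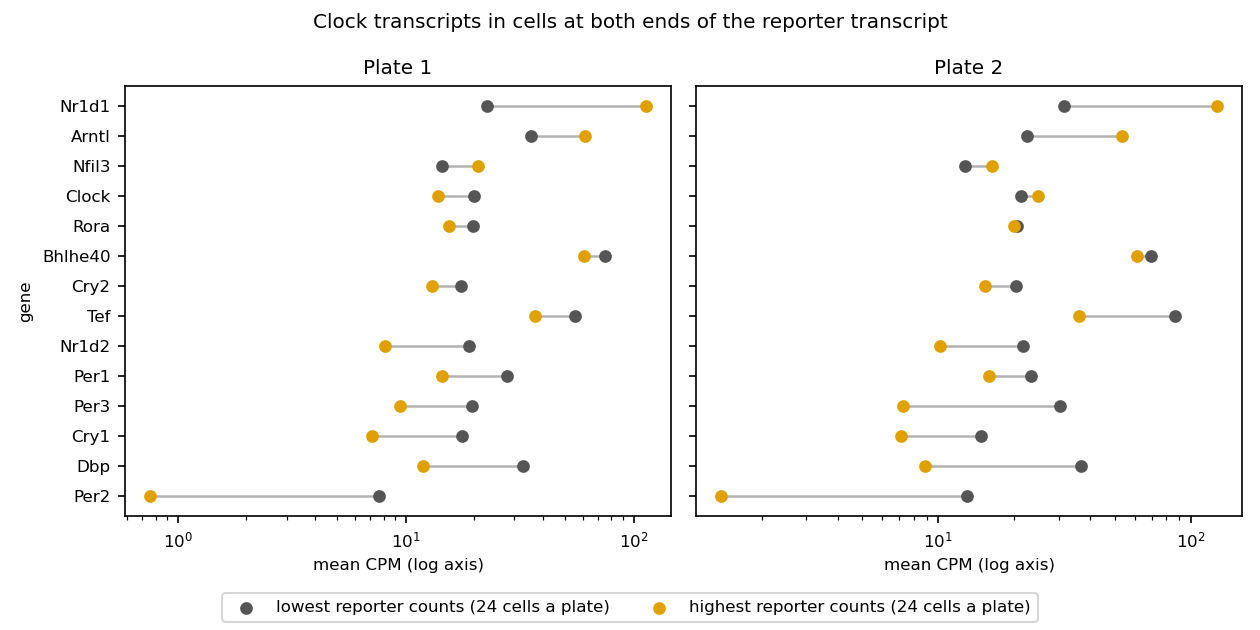
Mean CPM on a log axis of clock genes in the 24 cells with the highest and the 24 with the lowest reporter transcript of the dimmest gate, plates 1 and 2 apart. Arntl and Nr1d1 are higher, and Dbp, Tef, Per3, Cry1 and Per2 lower, in cells with more reporter transcript on both plates.

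Few genes of the whole transcriptome followed any single clock gene. Arntl had 77 of 11924 genes called (0.646%, 39 positive and 38 negative), led by Nrp2, a semaphorin co-receptor (0.278 and 0.390), Tsc22d1 (0.338 and 0.311) and Sertad4 (0.235 and 0.397). Besides Dbp, its lowest were Leprotl1 (−0.334 and −0.319) and Slc25a4, the mitochondrial ADP/ATP carrier (−0.241 and −0.341). Tef had 84 of 11924 called (0.704%, 52 positive and 32 negative). After Dbp and Per3 its highest was Snn (0.232 and 0.462), and its lowest were Nop58, a ribonucleoprotein needed for ribosome making (−0.230 and −0.390), Strap (−0.311 and −0.274) and Pithd1 (−0.242 and −0.313).

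Dbp had 274 of 11923 genes called (2.30%, 135 positive and 139 negative). After Tef, its highest were Slc6a6, the taurine transporter (0.376 and 0.382), and Pik3ip1, an inhibitor of phosphoinositide 3-kinase (0.320 and 0.429). Its lowest were H2afz, a histone H2A variant (−0.430 and −0.375), Nop58 (−0.300 and −0.494) and U2af1, a splicing factor (−0.367 and −0.423). Dbp was also negative with the summed G2/M transcripts described below (−0.360 and −0.326, or −0.349 and −0.252 without the cells high in those sums). The count depended on the setting: given the S phase and G2/M sums, 77 genes were called with Dbp, 139 with Nr1d1, 135 with Per2 and 81 with Arntl, and with Pearson's r 273 were called with Dbp and 393 with Nr1d1.

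Cry1 had 75 of 11924 genes called (0.629%, 48 positive and 27 negative), with Tomm40, a pore of the mitochondrial outer membrane (0.291 and 0.332), Mthfd1l (0.286 and 0.293) and Larp4 (0.203 and 0.373) highest. Besides YFP, Rpl21 (−0.279 and −0.304) and Dact3 (−0.292 and −0.276) were lowest. Per2 had 151 of 11925 called (1.27%), and Nr1d1 150 of 11922 (1.26%). The highest with Per2 among all genes were Hmga1 (0.358 and 0.366), Tagln2 (0.291 and 0.361) and Dcn (0.410 and 0.237), and the lowest besides YFP were Rflnb (−0.354 and −0.356) and Cdc42ep3 (−0.279 and −0.391). Since Per2 was at 0 in most cells, these weak values are listed without being read further.

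The cell cycle transcripts were low in most cells of the gate and many times higher in a few. The sum of 43 S phase genes had a median of 512 CPM on plate 1 and 544 CPM on plate 2, with highest values of 5143 and 4254 CPM. The sum of 54 G2/M genes had medians of 1020 and 1110 CPM and highest values of 18049 and 18691 CPM. Cells with either sum over 2 times the gate median numbered 6 of 95 on plate 1 (6.32%, exact binomial 95% interval 2.35 to 13.2) and 15 of 96 on plate 2 (15.6%, 9.02 to 24.5). The shallow cell was 1 of those 15, and without it 14 of 95 cells remained above the limit (14.7%). The intervals cover counting error only and do not test the plates against each other. This limit cuts a range: no cell of plate 1 and 1 cell of plate 2 had a G2/M sum between 1.5 and 2 medians, and 4 cells of plate 2 lay between 2 and 3. For the S phase sum, 1 cell of plate 1 and 6 of plate 2 lay between 1.5 and 2 medians, and 2 cells of each plate between 2 and 3.

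The other gates gave 8.33, 10.4 and 21.9% of cells over that limit on plate 1 and 13.5, 11.5 and 25% on plate 2, from the second dimmest to the brightest. The brightest gate had the highest share on both plates (intervals 14.1 to 31.5 and 16.7 to 34.9, which cover counting error only). On plate 2 it had 23 of 94 cells over the limit without its shallow cells. Cells are not replicates, so the difference between gates was not tested. In the remaining cells of the dimmest gate the largest parts of the G2/M sum came from 3 genes that are also used outside division. Jpt1 gave 18.5 and 19.1% of it, the tubulin gene Tubb4b 16.2 and 15.1%, and the heterochromatin gene Cbx5 11.2 and 10.4%.

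Among S phase genes, those with the widest spread were Uhrf1, which recruits DNA methylation to new strands, Rrm2 and Dtl, which serve nucleotide supply and replication licensing, and Atad2. Uhrf1 ran from 0 to 160 CPM on plate 1 (median 1.61) and from 0 to 199 CPM on plate 2 (median 2.90). Rrm2 reached 127 and 188 CPM, with medians of 0 and 2.51 CPM. The widest G2/M genes were Cdc20, the activator of the anaphase-promoting complex (highest 1221 and 1294 CPM, medians 3.95 and 1.96), Cenpa, the centromeric histone (642 and 1137 CPM), Birc5 (720 and 738 CPM) and Tacc3 (544 and 629 CPM). Of the S phase list 15 of 34 genes and of the G2/M list 26 of 31 were variable on both plates, beside 6.31% of all genes.

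**Figure D4:**
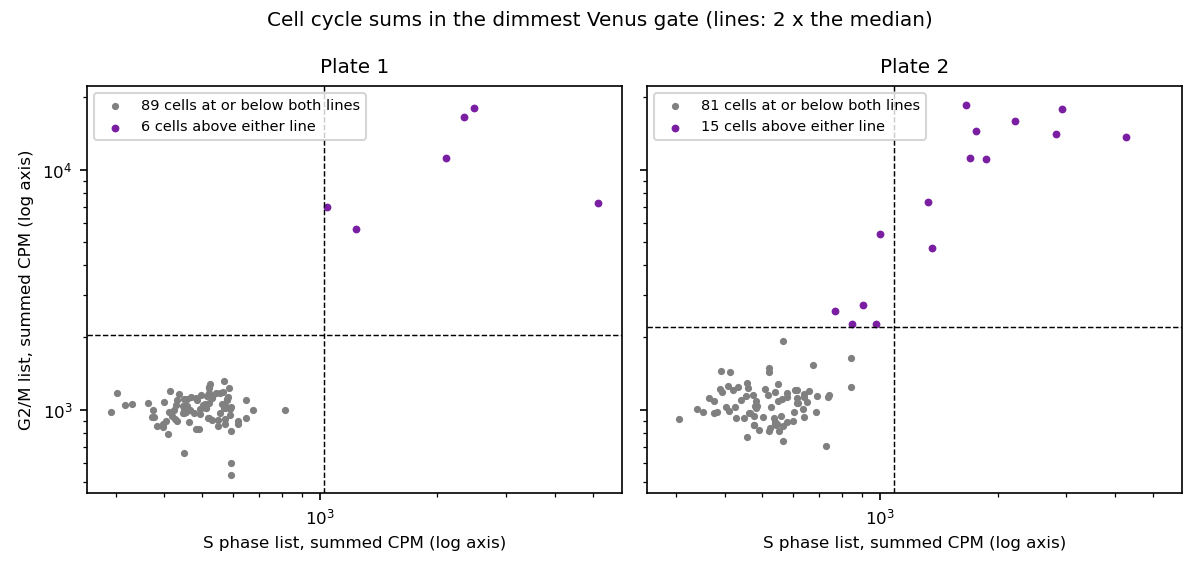
Sum of S phase transcripts against sum of G2/M transcripts in each cell of the dimmest gate, in CPM on log axes, plates 1 and 2 apart. Most cells lie near the medians (512 and 1020 CPM on plate 1, 544 and 1110 CPM on plate 2), and 6 cells on plate 1 and 15 on plate 2, the shallow cell among them, have either sum over 2 medians, some of them only just.

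Of 16 clock genes, 1 followed the S phase sum, against 3.74% of all genes (446 of 11925), and 1 followed the G2/M sum, against 11% (1309 of 11925). In both cases it was Dbp. With the S phase sum its rho was −0.262 and −0.263, and −0.227 and −0.159 without the cells over the limit, where it was no longer called. Arntl had a rho with the G2/M sum of −0.009 and −0.039, Cry1 of 0.078 and 0.018, and Tef of −0.328 and −0.121. With Dbp 2 of 34 S phase and 2 of 31 G2/M genes were called (5.88 and 6.45%, against 2.30% of all genes). Nasp, a histone chaperone (−0.206 and −0.222), Usp1 (−0.256 and −0.206), Smc4, a condensin subunit (−0.205 and −0.263), and Anp32e (−0.228 and −0.312) were negative with Dbp, and Tubb4b was negative with Tef (−0.277 and −0.230). Atad2 was positive with the sparse Per2 (0.307 and 0.263). The 6 cells over the limit on plate 1 averaged 11.9 CPM of Dbp against 17.9 CPM in the other 89, and the 14 on plate 2 averaged 12.6 against 20.4 CPM in the other 81. Arntl averaged 56.9 against 49.3 CPM and 49.9 against 42.6 CPM. Usp2, a deubiquitinase under clock control, averaged 17.5 against 4.80 CPM on plate 1 (medians 14.1 and 1.26) and 18.1 against 3.81 CPM on plate 2 (medians 17.8 and 0), and was singled out after its values were seen. Its rho with the G2/M sum was 0.069 and 0.301 and was not called.

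The mitochondrial share of counts had a rho with the G2/M sum of −0.398 and −0.425, and the number of detected genes one of 0.311 and 0.140. Of the 10 G1 and arrest genes compared, 2 were negative and 2 positive with the G2/M sum (40% called, against 11% of all genes). Gas1, a growth arrest gene, fell with the G2/M sum (−0.448 and −0.393), and so did Cdkn2c, an inhibitor of CDK4 and CDK6 (−0.317 and −0.401). Cdkn1a, the p21 inhibitor (0.398 and 0.224), and Ccnd1, cyclin D1 (0.343 and 0.285), rose with it. Cdkn1a was not clearly higher in the cells over the limit. Its medians in those and in the other cells were 156 and 155 (plate 1) and 110 and 112 CPM (plate 2). Its mean was lower in them for plate 1 (177 against 214 CPM) and higher for plate 2 (216 against 160 CPM). Gas1 was also positive with Arntl (0.213 and 0.212) and with YFP (0.297 and 0.340). Without the cells over the limit Cdkn1a stood at 0.450 and 0.280 and Ccnd1 at 0.340 and 0.164, so Ccnd1 was no longer called. Given total count and detected genes, 1057 rather than 1309 genes were called with the G2/M sum, and the part of the mitochondrial share was not tested.

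Matrix transcripts varied widely among the cells of the gate, and most of those tied to each other moved the same way. Of 58 listed matrix genes 54 were in the table, and 49 passed the 25% filter. Of these, 32 were variable on both plates (65.3%, against 6.31% of all genes). They included 10 of 14 collagens, all 4 proteoglycans, 10 of 12 glycoproteins, 1 of 4 integrins and 3 of 9 crosslinking enzymes.

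Col1a1, a chain of type I collagen, ran from 2684 to 17092 CPM on plate 1 (median 9344) and from 1472 to 20028 CPM on plate 2 (median 8233). Fn1, fibronectin, ran from 858 to 17481 CPM (median 5401) and from 438 to 20966 CPM (median 4962). Bgn, the proteoglycan biglycan, ran from 3.49 to 10567 CPM (median 5216) and from 0 to 15242 CPM (median 3285). All cells of the gate thus held Col1a1 and Fn1 in quantity, whereas some cells held almost no Bgn.

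The widest spread on a log2(CPM + 1) scale was that of Aspn, asporin (SD across cells 3.53 and 3.68), Eln, elastin (2.67 and 3.02), Ogn, osteoglycin (2.81 and 2.80), and Ccn2, connective tissue growth factor (2.54 and 3.06). Aspn had a median of 4.22 CPM on plate 1 and 1.30 CPM on plate 2 and reached 977 and 2079 CPM. Dcn, decorin, was found in 34 of 95 and 44 of 96 cells and reached 1804 and 477 CPM. Most cells therefore held few Aspn or Dcn transcripts and a few cells held very many. The 5 most variable genes of the gate at a mean of at least 10 CPM were Ccl2, a chemokine, Cdc20, Cenpa, Ccna2, cyclin A2, and Dcn. Ccl2 had counts in 38.9 and 58.3% of cells, with medians of 0 and 2.81 CPM.

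**Figure D5:**
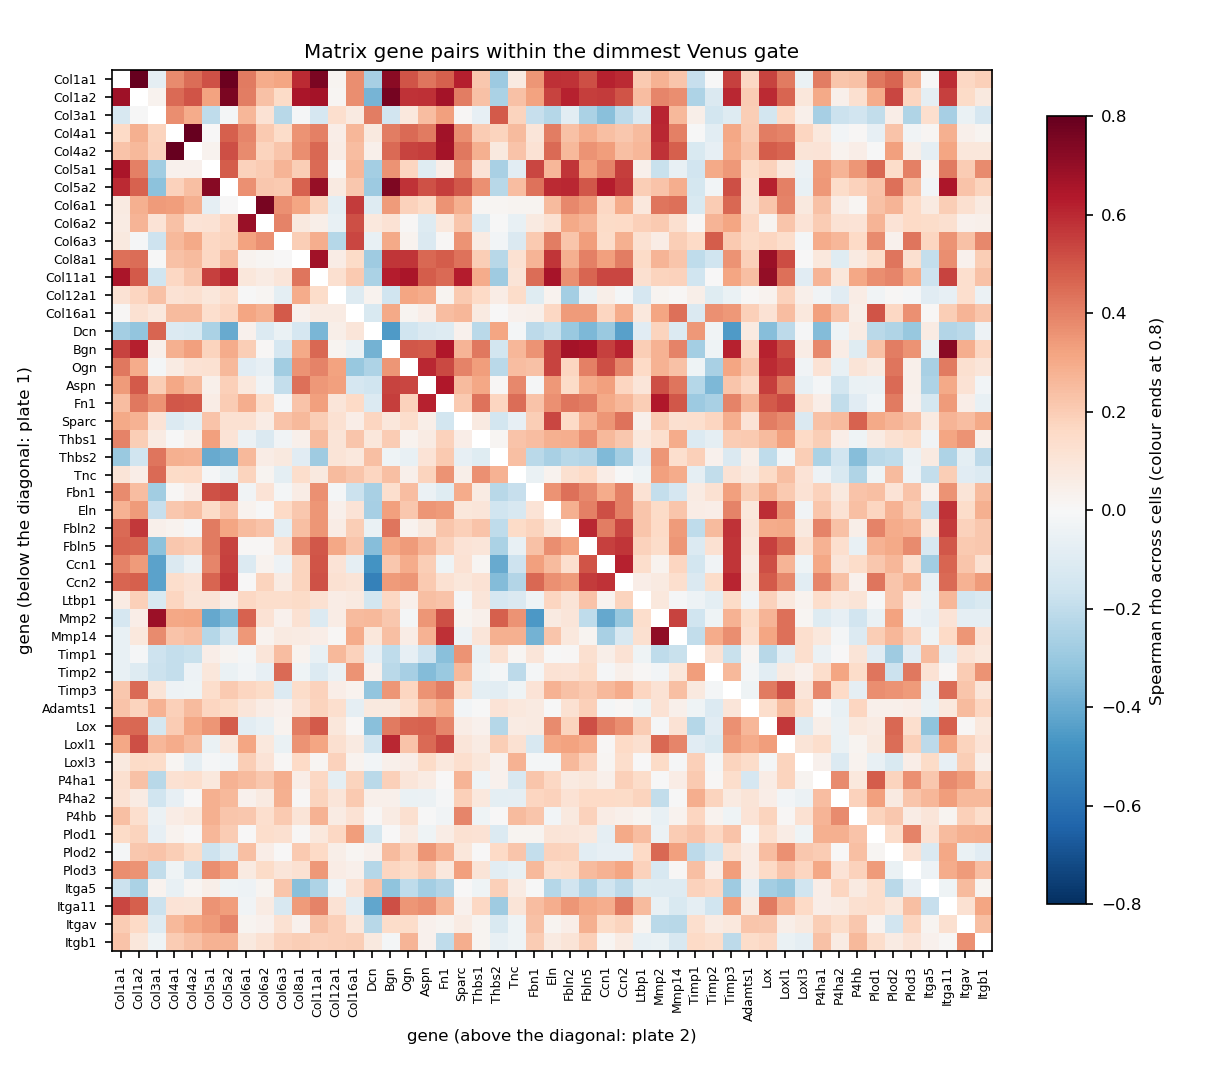
Spearman correlation of matrix gene pairs across the cells of the dimmest gate, plates 1 and 2 apart, genes grouped by class, with colour from negative to positive. Most called pairs are positive (297 of 340), and Dcn and Thbs2 are the genes with most negative pairs.

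Of 1176 matrix pairs 340 were called (28.9%), 297 positive and 43 negative, against 4.54% of pairs of a matrix gene with any gene compared. The highest values were between chains of the same collagen: Col4a1 with Col4a2 (0.825 and 0.838), whose genes lie head to head, Col1a1 with Col1a2 (0.680 and 0.838), and Col6a1 with Col6a2 (0.691 and 0.758). Col1a1 also followed Col11a1 (0.652 and 0.756) and Col5a2 (0.595 and 0.786), chains that assemble into the same fibrils. Of 91 collagen pairs, 37 were positive and 1 negative.

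The remodelling and growth factor genes formed further ties. Mmp2, a gelatinase, followed Mmp14, the membrane protease that activates it (0.707 and 0.541), and Col3a1 (0.686 and 0.611). Ccn1 followed Ccn2 (0.581 and 0.616), both targets of serum and mechanical signals. Aspn followed Fn1 (0.614 and 0.638) and Ogn (0.533 and 0.604), its neighbour in the genome.

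Dcn was the matrix gene with the most negative pairs, although most of its pairs were not called. Its counts were in 35.8 and 45.8% of cells, and its ranks are tied at 0 in the other cells. Dcn was negative in 16 of its 48 pairs and positive in 2, with Ccn2 (−0.542 and −0.436) and Bgn (−0.377 and −0.454) lowest. Thbs2, thrombospondin 2, was negative in 11 and positive in 4. Col3a1, with 6 positive and 5 negative pairs, was negative with Ccn1 (−0.428 and −0.334). By contrast Col1a2 was positive in 26 of 48 pairs and negative in 1, and Loxl3 was in no called pair.

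Of 49 matrix genes, 10 followed at least 1 of the markers Arntl, Cry1, Per2, Dbp and Tef (20.4%, against 5.05% of all genes). Mmp14 followed Dbp (0.295 and 0.318), Loxl1, a collagen and elastin crosslinking enzyme, followed Dbp (0.244 and 0.367) and Tef (0.234 and 0.268), and Fn1 followed Arntl (0.202 and 0.254). Bgn (−0.209 and −0.225) and Lox (−0.227 and −0.235) were negative with Cry1. The remaining ties were with the sparse Per2, where Lox, Col8a1, Col11a1, Col1a2, Bgn and Ccn1 were negative and Dcn positive. Col8a1, Col11a1, Col1a2, Ccn1 and Dcn were among the 10 only through Per2, so the 20.4% rests in part on its few cells. By marker, 1 of 49 was called with Arntl (2.04%, against 0.646% of all genes), 2 with Cry1 (4.08%, against 0.629%), 7 with Per2 (14.3%, against 1.27%), 2 with Dbp (4.08%, against 2.30%) and 1 with Tef (2.04%, against 0.704%).

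The reporter transcript had 6 of 49 matrix genes (12.2%, against 3.64%). Col1a2 (0.311 and 0.424), Lox (0.299 and 0.390), Aspn (0.232 and 0.345), Col8a1 (0.229 and 0.320) and Col11a1 (0.251 and 0.278) were positive, and Timp2, a protease inhibitor, was negative (−0.284 and −0.338). At a limit of 0.3 on both plates 1 of 49 was called.

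Cells with more G2/M transcript held less of several matrix genes. Of 49 matrix genes 12 were called with the G2/M sum, all negative (24.5%), against 3.92% of all genes in that direction. Fn1 (−0.445 and −0.574), Mmp2 (−0.499 and −0.530), Col3a1 (−0.412 and −0.449), Mmp14 (−0.470 and −0.355) and Loxl1 (−0.430 and −0.428) were the lowest. The others were Aspn, Tnc, Timp3, Bgn, Thbs2, Col8a1 and Plod2. Without the cells over the limit, a setting chosen after seeing the data, 8 were called, and Fn1 stood at −0.375 and −0.459. At a limit of 0.3 on both plates 5 were called.

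Means showed the same direction. Fn1 averaged 2683 CPM in the 6 cells over the limit on plate 1 against 6254 CPM in the other 89, and 2271 CPM in the 14 on plate 2 against 6303 CPM in the other 81. Col3a1 averaged 232 against 1112 CPM and 464 against 1264 CPM. Col1a1 differed less, with 8166 against 9449 CPM and 5852 against 9063 CPM. Mmp2 also had a rho with the mitochondrial share of 0.373 and 0.374 and with detected genes of −0.499 and −0.262. Given total count and detected genes, 9 of 49 rather than 12 matrix genes were called with the G2/M sum, and the part of the mitochondrial share was not tested.

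To place the gate among the others, counts were summed per plate and gate and the dimmest gate was tested against the mean of the other 3, with the plates as the 2 replicates. The 8 sums held 76042157 to 86612194 counts. In such sums, fewer cells with a transcript and less of it per cell cannot be told apart. By edgeR's quasi-likelihood test with Benjamini-Hochberg adjustment, 1634 of 18430 genes differed at an adjusted p under 0.05 (8.87%), 941 higher and 693 lower in the dimmest gate. Nr1d1 (log2 difference −2.99) and YFP (−3.61) are what the sort selected and are given as a description. Nothing in the labels says that the plates came from separate cultures, so the p-values measure only the spread between these sums.

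Of the 19 clock genes, Arntl rose and 13 fell (73.7% called, against 8.87% of all genes). The 13 and that share include Nr1d1, whose fall was fixed in advance by the sort. Arntl stood at 50.2 CPM on plate 1 and 43.1 CPM on plate 2 in the dimmest gate and at 40.7, 18.5 and 12.1 CPM (plate 1) and 40.6, 17.0 and 12.3 CPM (plate 2) from the second dimmest to the brightest. The dimmest gate was highest on both plates, and its log2 difference was 1.2 (SE 0.068, edgeR adjusted p = 0.000483). Dbp stood at 17.4 and 19.2 CPM in the dimmest gate and at 20.8 to 82.4 CPM in the others (log2 −1.27, SE 0.057, edgeR adjusted p = 0.000116). Its levels in the dimmest and second dimmest gates (20.8 and 23.3 CPM) lay close together. Tef stood at 39.5 and 56.8 CPM against 56.4 to 159 CPM (log2 −1.04, SE 0.059, edgeR adjusted p = 0.000483), with the dimmest gate of plate 2 level with the second dimmest of plate 1.

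Per3 (log2 −1.13, SE 0.074), Per2 (−1.18, SE 0.201) and Bhlhe41 (−1.22, SE 0.090) fell by similar amounts, with edgeR adjusted p of 0.00078, 0.0165 and 0.00138. Cry1 fell least, at 11.4 and 13.3 CPM against 13.3 to 19.0 CPM (log2 −0.36, SE 0.083, edgeR adjusted p = 0.0393), and without the plate in the model Cry1 and Rora did not pass. Clock (0.17, adjusted p = 0.344), Nfil3 (0.55, adjusted p = 0.123) and Usp2 (−0.19, adjusted p = 0.609) did not pass the edgeR test, although Nfil3 passed with DESeq2 and without the filter on low counts. The 5 markers therefore differed in the sums in 1 direction for Arntl and the other for Cry1, Per2, Dbp and Tef.

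The S phase list had 9 of 43 genes lower and none higher (20.9% called, against 8.87% of all genes). Among them Atad2 had a log2 difference of −0.74 (edgeR adjusted p = 0.0207). The G2/M list had 2 of 54 higher and 4 lower (11.1% called), near the share of all genes. Wee1, the kinase that holds back mitosis, was lower (−1.11, SE 0.113, edgeR adjusted p = 0.00405), as was Ccnd1 (−0.80, adjusted p = 0.0103), and Gas1 was higher (0.38, adjusted p = 0.0151). Of 54 matrix genes 15 were higher and 5 lower (37.0%, against 8.87% of all genes). Itga11, a collagen-binding integrin chain, was higher at 36.2 and 24.5 CPM against 6.16 to 18.2 CPM (log2 1.47, SE 0.122, edgeR adjusted p = 0.0019). Bgn (0.96), Ccn2 (0.97), Mmp14 (0.55), Timp3 (0.50), Col5a2 (0.46) and Fn1 (0.41) were higher too, and Col8a1 (−0.72), Dcn (−0.77) and Sparc (−0.26) lower. Fn1 was higher than the mean of the other gates only: on plate 2 it stood at 5659 CPM against 5688 CPM in the second dimmest gate. Dcn had an edgeR adjusted p of 0.0497, next to the limit, and did not pass without the plate in the model. Its levels overlapped across plates, at 44.7 and 22.5 CPM in the dimmest gate against 33.1 to 88.0 CPM in the others. Within each plate the dimmest gate was lowest, on plate 1 close to the brightest (46.8 CPM). Of the contractile genes, including Acta2, 0 of 7 passed the edgeR test. Bgn and Dcn, negative with each other among the cells of the gate, differed in opposite directions from the mean of the brighter gates, Dcn with this overlap.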

How the data were processed

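The authors deposited raw counts per gene and cell and a sorting record with fluorescence and scatter intensity per cell in arbitrary units. STAR 2.7.11a, SAMtools, bedtools, HTSeq and the build GRCm39 (mm39) are named in the submitters' processing notes. Annotation, strand use, molecular identifiers and compensation of the intensities are not given in the sources used here. If no such identifiers were used, several reads can stem from 1 molecule, and intervals cover counting error only. Without stated strand use, overlapping and antisense genes cannot be told apart, and genes overlapping a marker were left out of its counts.

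The count table held 33757 features, of which 24902 matched a gene symbol and 2 were reporter sequences. Features without a symbol held 1.09% of the gate's counts. Genes listed but not found in the table (Cdkn1c, Cdkn2a, Fbln1, Mmp3, Mmp10, Mmp13, Kdr, Myod1, Myog) were not analysed here. Counts were scaled to CPM, that is, to 1000000 counts per cell, and Spearman correlations were taken per plate across cells of the gate. A list member was compared with the cycle sum without itself. Variable genes were found against a running median over 201 genes. No doublet caller was run, since 1 cell was sorted per well per the labels' protocols.

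Counts were summed per plate and gate and tested by the quasi-likelihood method of edgeR 4.0.16 under R 4.3.3 (filterByExpr, TMM, terms for gate and plate, Benjamini-Hochberg adjustment). Alternatives used DESeq2 1.42.0, other filters, scalings, covariates and limits. The settings without the cells high in cycle sums and with the detector channel were chosen after seeing the data. Scripts ran in Python 3.11.15 with numpy 2.4.6, scipy 1.17.1 and pandas 2.3.3, and were tested on simulated data. Named genes were the clock list and reporters, the 3 highest and 3 lowest genes per marker at a mean of at least 10 CPM, the 4 widest members and the strongest marker followers of the cycle and matrix lists, and the 5 most variable genes. Matrix pairs, G1 genes and members called with a sum were named after their values were seen. The members and lists were chosen with earlier results of these data known. Promoter sequences are from RefSeq on GRCm38.p6, not the build of the counts, and were matched by symbol.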

Additional observations from a re-analysis of the deposited data

How the results depend on the processing

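Of 151 recomputed main counts, 123 stayed within 1.5 times the count reported. The limit of rho mattered most. At 0.3 instead of 0.2 on both plates, 2 clock pairs and 169 matrix pairs were called, 2 genes with Arntl, 0 with Cry1, 6 with Per2, 21 with Dbp, 3 with Tef, 10 with Nr1d1, 48 with the reporter transcript, 46 with the S phase sum, 394 with the G2/M sum and 1 with Venus light, and 1, 5 and 1 matrix genes with the 5 markers, the G2/M sum and the reporter transcript. With Pearson's r of log2(CPM + 1) the counts were 146 for Arntl, 217 for Tef, 393 for Nr1d1, 1076 for the S phase sum, 41 for Venus light and 13 matrix genes for the reporter transcript. Given the S phase and G2/M sums, 77 genes were called with Dbp and 34 with Tef. Without the cells over 2 medians of either sum, 175 were called with Dbp and 122 with Arntl. A residual limit of 0.5 gave 1691 variable genes. Except for the limits and the smaller set of cells, the cause of these changes was not tested.

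For the gates, DESeq2 called 2516 genes and edgeR with no replicate block for the plate 648, where Rora, Cry1 and Dcn no longer passed. The replicate numbers are the plates, so the block is the plate itself. With 1 plate left out the model had no residual degrees of freedom, and only log2 differences could be had: for Arntl 1.03 without plate 1 and 1.22 without plate 2, and for Clock, which did not pass the test, 0.31 and −0.04, a change of sign. Of 254 other values, 226 were rated the same, 23 moved, 2 stronger and 3 weaker. For the other settings of the gate test, the same meant the same direction and call. Values with 1 plate left out have no call and were rated by their shift against the difference between the plates. Depth limits Per2, Npas2 and Hlf most, since 1 count at median depth equals 1.26 CPM on plate 1 and 1.22 CPM on plate 2.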
